A study of Mus musculus with 15 samples.

Results

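The genes of glycolysis and of the response to low oxygen were followed in cCFU-F, the cardiac colony-forming unit fibroblasts of the mouse, which are stromal cells able to found a colony from a single cell. A list of 40 genes was used, chosen with earlier results of these data known. It held transporters of glucose and lactate, the enzymes of glycolysis, and regulators of its rate and of the fate of pyruvate. The oxygen sensing machinery and known targets of hypoxia completed it. Of the 40 genes, 37 were measured on a probe set naming only that gene, out of 19938 genes tested. Gpi1 (glucose phosphate isomerase) and Eno1 (the widespread enolase) were named by no probe set in the annotation used, and Gapdh was named only together with other genes, so their changes are not analysed here. Ero1l on the list is the gene now called Ero1a.

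Glycolysis splits glucose into pyruvate in the cytosol, and most of its enzymes exist in several forms made by different genes. Lactate dehydrogenase turns pyruvate into lactate, which leaves the cell through monocarboxylate transporters, while pyruvate dehydrogenase kinases hold pyruvate back from the mitochondria. When oxygen falls, prolyl hydroxylases of the EGLN family lose activity, the HIF alpha subunits are no longer degraded, and with their partner ARNT they switch on genes that carry the short sequence ACGTG or GCGTG. HIF activity is set largely at the protein level, which RNA arrays do not measure.

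The 5 groups held 3 arrays each, of total RNA from cells labelled as C57BL/6, male, 12 weeks old and sorted for SCA1 and PDGFRα without CD31. Large colonies were untreated and sampled at passage 5 and passage 15. Small colonies were sampled untreated at passage 5 only, and with PDGF-AB at 50 ng/ml at both passages. PDGF-AB is a growth factor that binds the PDGF receptors. No group was labelled as untreated small colonies at passage 15, so colony size and treatment cannot be told apart at that passage. Whether the 3 arrays of each group represent independent cultures or mice was not labelled, so the p-values cover array-to-array spread alone, and that spread could be technical. Oxygen levels and cell density were not given in the labels.

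Array medians lay between 5.59 and 5.72 on the log2 scale, and arrays correlated across genes, which are not independent replicates, at 0.997 to 0.998 (Pearson's r) within and 0.958 to 0.991 between groups. Xist, the RNA of the inactive X chromosome of female cells, read 8.93 to 10.88 over the 15 arrays, and 4 Y-linked genes read 2.24 to 3.42, which goes against the label male. Pgk1 and Pdk3 lie on the X chromosome. The 10 fibroblast markers had mean levels of 9.79 to 10.97 per array. All 10 lay above the median level of all genes (6.0) in both groups of large colonies. In small colonies 9 did so at passage 5, untreated and treated, and 8 in treated ones at passage 15. The 8 endothelial markers had means of 4.45 to 4.84, with none above the median level, and likewise none of 5 adipocyte and 3 Schwann cell markers. Of 6 pericyte markers 2 to 4 lay above it per group (array means 5.86 to 6.25), and of 8 cardiomyocyte markers 2 in each group (5.37 to 5.84). The 8 leukocyte markers had means of 5.53 to 5.62 in untreated small colonies at passage 5, with 3 above the median level, and 4.86 to 4.95 in treated small colonies at passage 15, with none, the ends of their range. The part of these markers in the results was not tested. In bulk RNA, fewer cells of a type and less RNA per cell cannot be told apart. Ly6a, which encodes SCA1, was not analysed here.

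Levels below are log2 intensities, given for the 3 arrays of a group or as mean ± SD (n = 3). Changes are log2 differences ± SE from a linear model (limma) over all 15 arrays, and adjusted p-values are limma's after Benjamini-Hochberg adjustment over all genes. A gene is called, or said to rise or fall, where its adjusted p is under 0.05. A level near the lower quartile of the probe sets (4.06 to 4.23 over the arrays) is close to background, and levels of different genes are not compared.

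Untreated small colonies at passage 5 were the group in which these genes were most often at their highest. Of the 37 members 18 (48.6%) had their highest group mean there, against 14.1% of all genes and 19.4% of genes at or above the median level, among them Hif1a, Pdk1, Egln3, Bnip3, Ddit4, Higd1a, Slc2a1 and 7 glycolytic enzymes. The list was chosen with earlier results of these data known, so these shares describe it and are no independent support. Untreated large colonies at passage 15 and treated small colonies at passage 15 each held the lowest mean of 11 members. The share of all genes lowest in these groups was not computed. The map over the 15 arrays shows the 18 members high in untreated small colonies at passage 5 and lower in treated ones at passage 15. Treatment and passage both differ between those groups. Another 7 members (18.9%) were highest in treated small colonies at passage 15, against 36.3% of all genes. Of genes at or above the median level 19.7% were highest there. The 7 include Hk1, whose probe sets disagree.

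**Figure D1:**
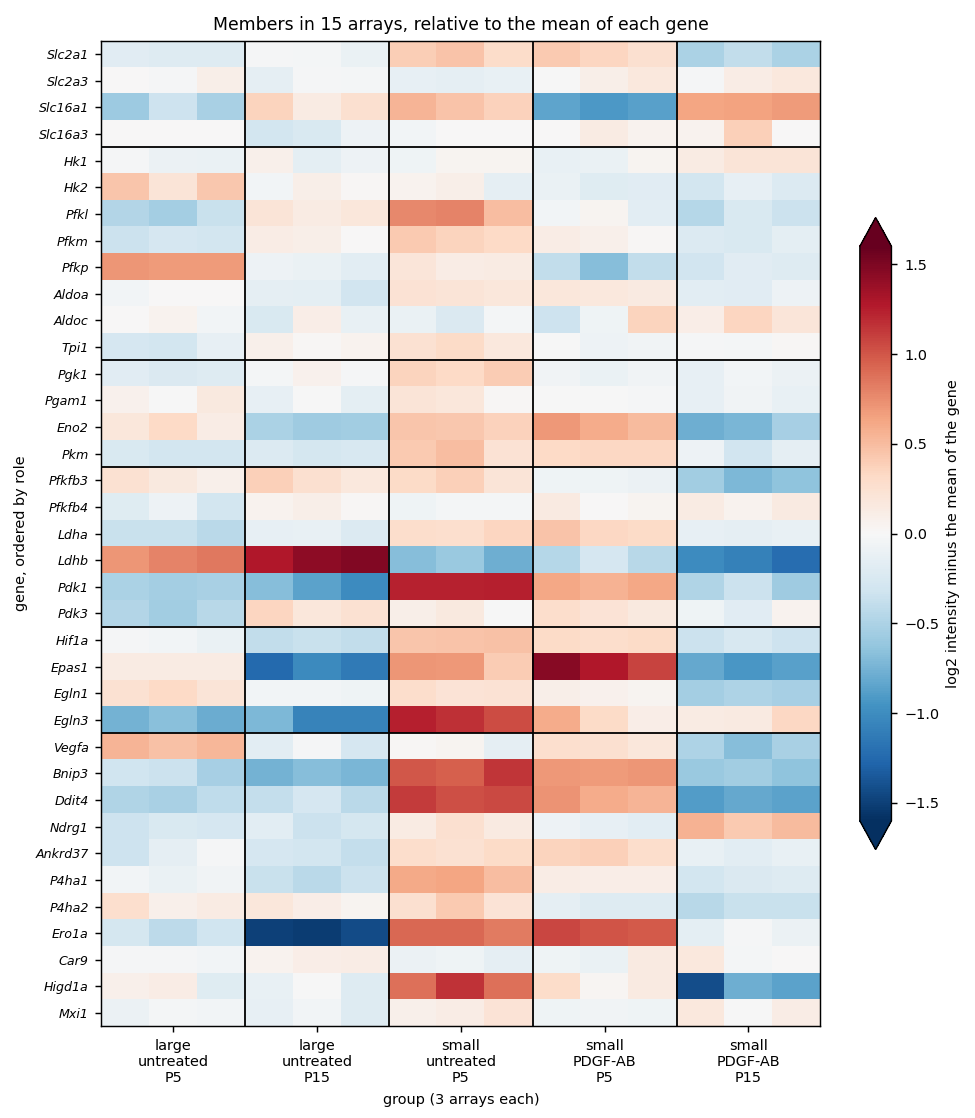
Log2 intensity of the 37 members in each of the 15 arrays (columns, 3 per group) minus the mean of each gene over all arrays; horizontal lines divide the roles, and colours are cut at 1.6 on both sides. Untreated small colonies at passage 5 hold the highest group mean of 18 members.

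In the comparison of untreated large and small colonies at passage 5, which asked what sets the colony types apart, 27 of 37 members were called, 4 higher and 23 lower in large colonies. Over all 19938 genes 36.2% were called, 18.2% higher and 18% lower. Because 32 of the members lay at or above the median level, where differences are called more often, the share among such genes is the closer background: there 55.3% were called, 26.2% higher and 29.1% lower in large colonies. The median difference of the members was -0.46, against 0.031 over all genes. The arrays of the groups did not overlap for 30 members, where 44.9% of all genes showed no overlap. In no comparison was the share without overlap computed for genes at or above the median level, so these counts lack that closer background. At least 1.5-fold differences were called in 13 members, 1 higher and 12 lower, against 9.93% of all genes and 15.6% of those at or above the median level.

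With PDGF-AB in small colonies at passage 5, 22 members were called, 4 higher (2 without treated replicate 2) and 18 lower, where 28.9% of all genes were called. Of all genes 10.7% rose and 18.2% fell, and among genes at or above the median level 44.8% were called, with 13.8% rising and 31% falling. The arrays did not overlap for 28 members, against 43% of all genes. The median change was -0.16 for the members and 0.016 for all genes. At least 1.5-fold changes were called in 7 members, 1 up and 6 down, where 4.43% of all genes and 6.63% of those at or above the median level passed. Large colonies and treated small colonies were both set against the same 3 arrays of untreated small colonies, so the 2 comparisons are not independent.

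In untreated large colonies 9 members rose and 13 fell between passage 5 and passage 15, where 36.1% of all genes were called, 17.4% up and 18.7% down. At or above the median level 56.9% were called, 28.8% up and 28% down, so that the number of called members is near the background. In treated small colonies 5 members rose (4 without Hk1, whose probe sets disagree) and 22 fell, where 46% of all genes were called, 24.6% up and 21.4% down. At or above the median level 65.8% were called, with 29.8% rising and 36% falling. The arrays of the passages did not overlap for 24 members in large and 28 in treated small colonies, against 44.5% and 54.9% of all genes. The median change was -0.090 in large and -0.29 in treated small colonies, against -0.042 and 0.051 over all genes. The test of the difference between the passage changes called 22 members, 19 of them more negative in treated small colonies and 3 more positive (5 without treated passage 15 replicate 1 or treated passage 5 replicate 3), where 34.4% of all genes were called, 18.6% more positive and 15.9% more negative. At or above the median level the shares were 19.6% and 26.7%.

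At passage 15 treated small colonies were higher than untreated large colonies for 12 members (11 without Hk1) and lower for 12, where 53.4% of all genes were called, 29.2% higher and 24.2% lower. At or above the median level 64.8% were called, 23.2% higher and 41.5% lower, and the arrays did not overlap for 27 members and 60.7% of all genes. That number of calls is near the background, and the median difference of the members was 0.024.

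**Figure D2:**
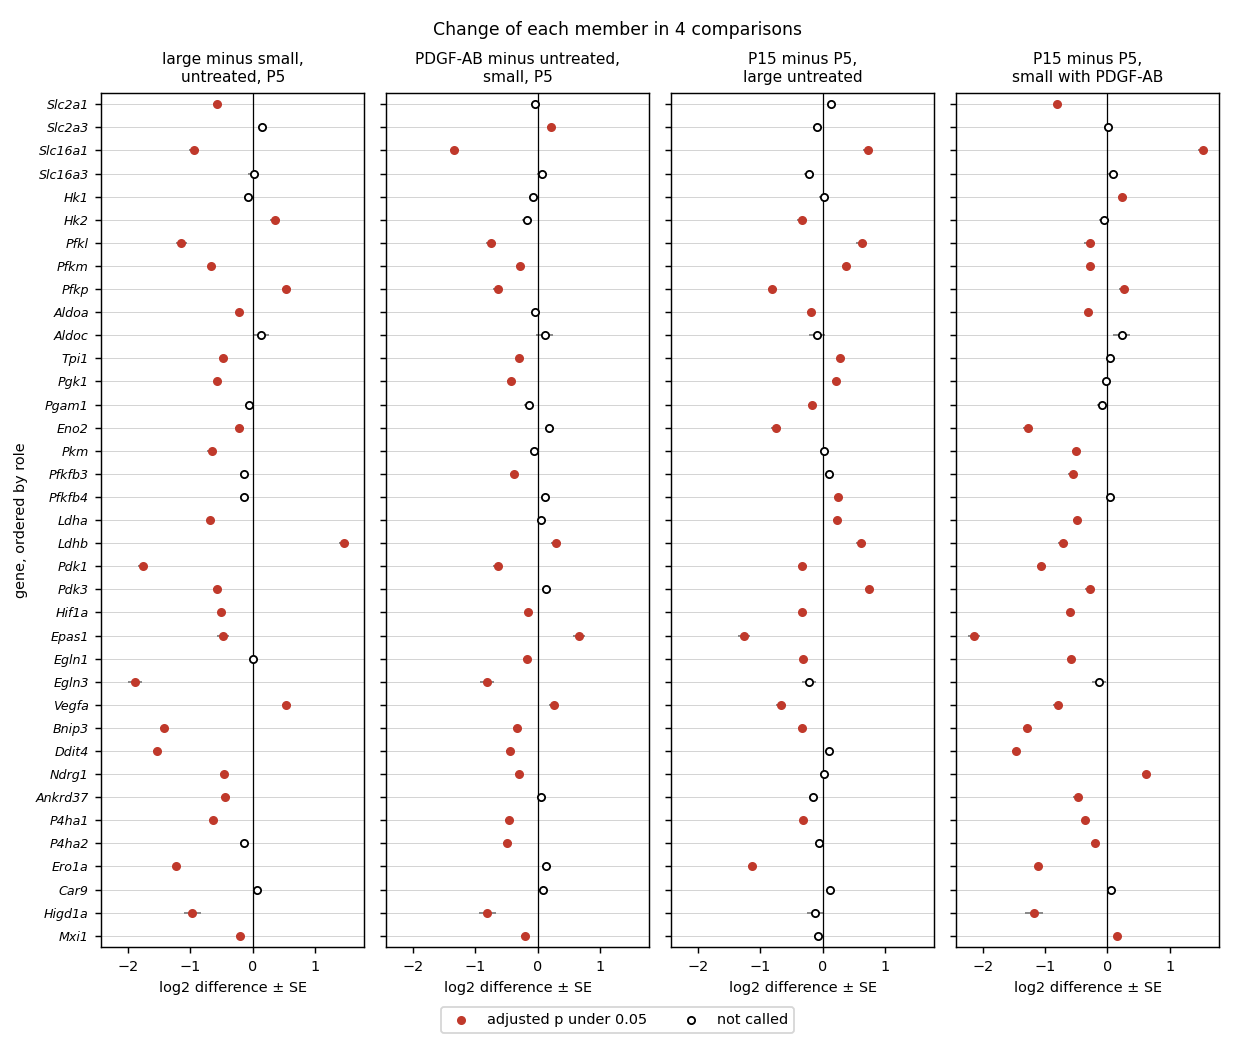
Log2 difference ± SE (horizontal axes) of each of the 37 members in 4 comparisons; filled points have an adjusted p under 0.05. Most filled points lie left of 0 in the comparison of large with small colonies (23 of 27), with PDGF-AB (18 of 22) and with passage in treated small colonies (22 of 27), while passage in large colonies has 9 to the right and 13 to the left.

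The promoters of the members were read for the core of the HIF binding motif. Promoters from RefSeq (GRCm38.p6, 250 bases before to 50 after each start) were found for 34 of the 37 members, 48 promoters in all. The motif ACGTG, searched on both strands so that it is also read as CACGT, was present in 31 of the 48 (64.6%), against 19.6% of all 32851 promoters in the table and 21.6% of the 19177 promoters of genes tested. ACGTG or GCGTG (also read as CACGC) was present in 39 of 48 (81.2%), against 43.8% of all promoters and 51.7% of those of genes tested. The motif holds a CG pair, and the members' promoters had a median of 21 CG pairs, against 15 in those of genes tested and 7 in all. Many of the listed genes are known as HIF targets, and a match is a description and not a binding site. The palindrome CACGTG, the site of MYC and related factors, is counted on both strands.

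The promoters of the 4 members that lay furthest lower in large than in small untreated colonies are shown, since the results below turn on them, with every ACGTG or GCGTG on either strand in capitals.
Egln3 promoter, GRCm38.p6 chr12:54203825-54204124, minus strand: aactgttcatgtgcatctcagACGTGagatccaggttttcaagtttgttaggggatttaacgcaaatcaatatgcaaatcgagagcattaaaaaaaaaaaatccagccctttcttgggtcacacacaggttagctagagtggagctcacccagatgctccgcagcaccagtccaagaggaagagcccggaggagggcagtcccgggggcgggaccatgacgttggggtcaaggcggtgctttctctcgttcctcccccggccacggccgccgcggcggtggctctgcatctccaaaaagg
Pdk1 promoter, GRCm38.p6 chr2:71872974-71873273, plus strand: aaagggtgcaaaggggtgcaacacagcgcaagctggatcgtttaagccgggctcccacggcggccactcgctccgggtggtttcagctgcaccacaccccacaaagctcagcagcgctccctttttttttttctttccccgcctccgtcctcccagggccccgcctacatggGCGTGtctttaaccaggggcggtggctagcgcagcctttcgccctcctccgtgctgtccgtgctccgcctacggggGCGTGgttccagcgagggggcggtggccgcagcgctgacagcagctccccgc
Ddit4 promoter, GRCm38.p6 chr10:59951721-59952020, minus strand: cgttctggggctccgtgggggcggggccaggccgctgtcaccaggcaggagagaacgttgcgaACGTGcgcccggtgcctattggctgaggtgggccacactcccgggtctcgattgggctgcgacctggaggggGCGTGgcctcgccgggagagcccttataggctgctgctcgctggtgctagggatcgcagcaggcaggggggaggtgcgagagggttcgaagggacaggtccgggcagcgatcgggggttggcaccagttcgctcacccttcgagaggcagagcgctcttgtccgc
Bnip3 promoter, GRCm38.p6 chr7:138909457-138909756, minus strand: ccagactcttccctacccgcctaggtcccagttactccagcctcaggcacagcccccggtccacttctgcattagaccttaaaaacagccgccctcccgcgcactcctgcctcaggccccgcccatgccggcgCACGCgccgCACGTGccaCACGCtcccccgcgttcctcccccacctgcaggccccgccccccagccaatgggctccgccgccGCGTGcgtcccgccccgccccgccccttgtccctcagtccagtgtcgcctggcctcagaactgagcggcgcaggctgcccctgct
For Pdk1 the first of 2 listed promoters is shown, and the other held no match. Bnip3 held 5 matches, 2 of them the strands of 1 palindrome, within 117 bases before the start. Ddit4 and Pdk1 held 2 each and Egln3 held 1, at 229 bases before the start.

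The transporters were led by Slc16a1, which encodes the lactate and pyruvate transporter MCT1 and moved in every comparison. Its arrays read 7.79, 7.70 and 7.61 in untreated small colonies and 6.40, 6.32 and 6.37 with PDGF-AB at passage 5, a change of -1.34 ± 0.074 (adjusted p = 8.69e-10) and the largest change of any member with the growth factor. In treated small colonies at passage 15 they read 7.88, 7.89 and 7.92, a rise with passage of 1.53 ± 0.074. These values lie above those of untreated small colonies at passage 5, but that comparison mixes passage with PDGF-AB and was not tested. Large colonies read 6.65, 6.91 and 6.72 at passage 5 and 7.59, 7.37 and 7.50 at passage 15, a rise of 0.73 ± 0.074 (adjusted p = 5.44e-07). The groups did not overlap in any of these pairs, and the rise was larger in treated small colonies by 0.80 ± 0.10 (adjusted p = 1.54e-05).

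Slc2a1, which encodes the glucose transporter GLUT1, went the other way with passage in small colonies. It read 10.28, 10.21 and 10.12 in treated small colonies at passage 5 and 9.36, 9.47 and 9.36 at passage 15, a change of -0.80 ± 0.060 (adjusted p = 9.23e-09). Large colonies read 9.68, 9.66 and 9.66 and 9.84, 9.83 and 9.76 at the 2 passages, a change of 0.14 ± 0.060 that was not called (adjusted p = 0.0794). It was called when genes under the median level were dropped (adjusted p = 0.0342). The passage changes differed by -0.95 ± 0.085. Untreated small colonies at passage 5 read 10.25, 10.32 and 10.16, higher than large ones (-0.57 for large minus small), and PDGF-AB left no called change (-0.04 ± 0.060, adjusted p = 0.658). Slc2a3 (GLUT3) and Slc16a3 (the lactate exporter MCT4) had group means of 4.85 to 5.07 and 5.59 to 5.95, below the median level of all genes. Neither was called with passage in either culture, but the change of Slc16a3 in large colonies (-0.22 ± 0.084, adjusted p = 0.055) was called with arrays centred on their medians (adjusted p = 0.0227), with the compared arrays alone (0.0419), with the replicate block (0.0476) and without passage 15 replicate 3 (0.0255). Slc2a3 rose with PDGF-AB by 0.21 ± 0.064 (adjusted p = 0.0191), which was not called when replicate 2 of the untreated small colonies was left out (adjusted p = 0.0578) or treated replicate 2 (0.0526) or 3 (0.0917). Under cyclic loess it was 0.13 and not called (adjusted p = 0.121).

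Phosphofructokinase, the enzyme that commits sugar to glycolysis, is a tetramer built from the liver, muscle and platelet type subunits of Pfkl, Pfkm and Pfkp. The genes moved against each other. Pfkl read 7.83, 7.76 and 7.95 in large and 9.08, 9.10 and 8.79 in small untreated colonies at passage 5, a difference of -1.14 ± 0.086 (adjusted p = 1.35e-08). Pfkp read 7.83, 7.81 and 7.81 in the same large colonies and 7.32, 7.25 and 7.26 in the small ones, a difference of 0.54 ± 0.072 the other way. Pfkm followed Pfkl, with 8.53 ± 0.040 in large and 9.20 ± 0.051 in small colonies.

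With passage the pattern turned in large colonies. Pfkl rose by 0.63 ± 0.086 to 8.51, 8.44 and 8.49 and Pfkm by 0.37 ± 0.056, while Pfkp fell by 0.81 ± 0.072 to 7.05, 7.02 and 6.96 (adjusted p = 1.10e-07). In treated small colonies the signs were opposite. Pfkl went from 8.26, 8.35 and 8.13 to 7.85, 8.07 and 7.96, a change of -0.28 ± 0.086, and Pfkp from 6.73, 6.44 and 6.74 to 6.83, 6.95 and 6.92, a rise of 0.26 ± 0.072. The tests of the difference gave -0.91 ± 0.12 for Pfkl, -0.65 ± 0.079 for Pfkm and 1.07 ± 0.10 for Pfkp (adjusted p = 1.95e-05, adjusted p = 7.19e-06 and adjusted p = 4.48e-07). The fall of Pfkl in treated small colonies (adjusted p = 0.0123) was lost without treated passage 15 replicate 1 (adjusted p = 0.0623) or treated passage 5 replicate 2 (0.0625). PDGF-AB at passage 5 lowered all 3 genes, with changes of -0.75, -0.29 and -0.64.

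Hexokinases phosphorylate glucose on entry. Hk2 was higher in large than in small untreated colonies at passage 5 (8.24 ± 0.13 and 7.88 ± 0.13, adjusted p = 0.00157) and fell with passage in large colonies (change -0.33 ± 0.078). Hk1 was read on 2 probe sets naming only this gene, and they disagreed. The probe set with the higher mean, used here by rule, was annotated by a single accession, which it shares with 16 probe sets that name the ribosomal protein gene Rpl17 together with Hk1. It gave means of 11.99 and 12.23 in treated small colonies at passage 5 and passage 15, a rise of 0.24 ± 0.068. The other, annotated by RefSeq transcripts of Hk1 and by the shared accession as well, gave 8.88 and 8.41 in the same groups, a fall by 0.47 (adjusted p = 1.26e-05). At passage 15 the difference between treated small and large colonies was 0.23 on the former and -0.63 on the latter. No direction is therefore given for Hk1.

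The remaining enzymes follow in the order of the pathway. Tpi1 (triose phosphate isomerase), Pgk1 (phosphoglycerate kinase) and Pkm (pyruvate kinase) were lower in large than in small untreated colonies, with differences of -0.47, -0.57 and -0.66, as was Aldoa (aldolase A, -0.22). Tpi1 and Pgk1 fell with PDGF-AB (changes of -0.29 ± 0.058 and -0.43 ± 0.053), while Aldoa (-0.04 ± 0.056), Pgam1 (-0.14 ± 0.065) and Pkm (-0.06 ± 0.069) were not called. The change of Pgam1 with PDGF-AB was called with array weights (adjusted p = 0.0328), with trend and robust moderation (0.0279) and without untreated small replicate 3 (-0.20, 0.0309). Pgam1 is phosphoglycerate mutase, and its group means lay between 11.16 and 11.40. Its fall with passage in large colonies (-0.17, adjusted p = 0.046) was lost in the blocked fit (adjusted p = 0.0577), with the compared arrays alone (0.097) and without large passage 5 replicate 1 or 3 (adjusted p = 0.0837 and 0.185) or passage 15 replicate 1 or 3 (0.128 and 0.152). Aldoc, the brain type aldolase, had group means of 4.82 to 5.16 and was called in no comparison of the main fit. Its difference between the cultures at passage 15 was called with the compared arrays alone (adjusted p = 0.0251) and without large passage 15 replicate 2 (0.0322). The 25 probe sets naming Gapdh with other genes had group means between 12.60 and 13.08 in all 5 groups.

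Eno2, the enolase of neurons and a known hypoxia target, fell with passage in both cultures. It read 7.87, 8.01 and 7.81 in large colonies at passage 5 and 7.19, 7.13 and 7.13 at passage 15, a change of -0.75 ± 0.073. In treated small colonies it read 8.39, 8.29 and 8.20 and 6.91, 6.96 and 7.16, a change of -1.28 ± 0.073 (adjusted p = 2.87e-10). In both cultures every array at passage 15 lay below every array at passage 5, and the fall was larger in treated small colonies (-0.54 ± 0.10, adjusted p = 7.35e-04). Untreated small colonies at passage 5 read 8.14, 8.13 and 8.06.

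The subunits of lactate dehydrogenase held the largest difference of any member between the cultures at passage 15. Ldhb encodes the H subunit, and it read 7.47, 7.57 and 7.62 in large and 6.09, 6.18 and 5.99 in small untreated colonies at passage 5, a difference of 1.47 ± 0.079 (adjusted p = 1.73e-10). At passage 15 large colonies read 8.05, 8.21 and 8.25 and treated small colonies 5.77, 5.69 and 5.55, 5.66-fold apart (-2.50 ± 0.079). Ldhb thus rose with passage in large colonies by 0.61 ± 0.079 and fell in treated small colonies (change -0.72 ± 0.079) from 6.31, 6.51 and 6.33, a difference of -1.33 ± 0.11 (adjusted p = 1.05e-07). With PDGF-AB at passage 5 it rose by 0.30 ± 0.079, a call lost without treated replicate 2 (adjusted p = 0.0564).

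Ldha, which encodes the M subunit and is a classic HIF target, lay the other way between the colony types. It read 11.02, 11.03 and 10.95 in large and 11.67, 11.65 and 11.73 in small untreated colonies (-0.68 ± 0.057, adjusted p = 5.44e-08). It too rose in large colonies (0.23 ± 0.057) and fell in treated small colonies (-0.49 ± 0.057), and the passage changes differed by -0.72 ± 0.081. At passage 15 the cultures read 11.25, 11.27 and 11.16 and 11.26, 11.24 and 11.27, a difference of 0.02 ± 0.057 that was not called.

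The kinases that switch off pyruvate dehydrogenase also differed between the cultures. Pdk1, a HIF target, read 8.03, 8.03 and 8.05 in untreated small colonies and 6.29, 6.26 and 6.28 in large colonies at passage 5, 3.39-fold lower in large ones (adjusted p = 7.42e-12). It read 7.41, 7.36 and 7.42 with PDGF-AB, a change of -0.64 ± 0.074, and 6.32, 6.45 and 6.23 in treated small colonies at passage 15, a further change of -1.06 ± 0.074. In large colonies at passage 15 it read 6.12, 5.94 and 5.79, a change of -0.32 ± 0.074. Untreated small colonies were thus above every other group, with no overlap.

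Pdk3 followed another course. It read 8.55, 8.47 and 8.59 in large colonies at passage 5 and 9.37, 9.21 and 9.27 at passage 15, a rise of 0.75 ± 0.071, while treated small colonies went from 9.30, 9.25 and 9.18 to 8.95, 8.84 and 9.09, a change of -0.29 ± 0.071. The difference between these changes was -1.03 ± 0.10 (adjusted p = 6.18e-07). Pfkfb3 and Pfkfb4 encode enzymes that set the level of the sugar phosphate activating phosphofructokinase. Pfkfb3 read 7.41, 7.48 and 7.30 in untreated and 7.03, 7.03 and 7.0 in treated small colonies at passage 5 and 6.54, 6.39 and 6.46 in treated ones at passage 15, with called changes of -0.38 ± 0.069 and -0.56 ± 0.069. In large colonies it read 7.34, 7.25 and 7.18 and 7.48, 7.35 and 7.27 at the 2 passages (0.11 ± 0.069, not called), and at passage 15 treated small colonies were lower than large ones (difference -0.90). Pfkfb4 had group means of 6.19 to 6.49 and was called in the main fit only with passage in large colonies (0.25 ± 0.061). Between colony types it was called with genes under the median level dropped (adjusted p = 0.0359) or without large passage 5 replicate 2 (0.025). The difference between its passage changes was called under the same alternatives (0.0356 and 0.0277) and with cyclic loess (0.0194).

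**Figure D3:**
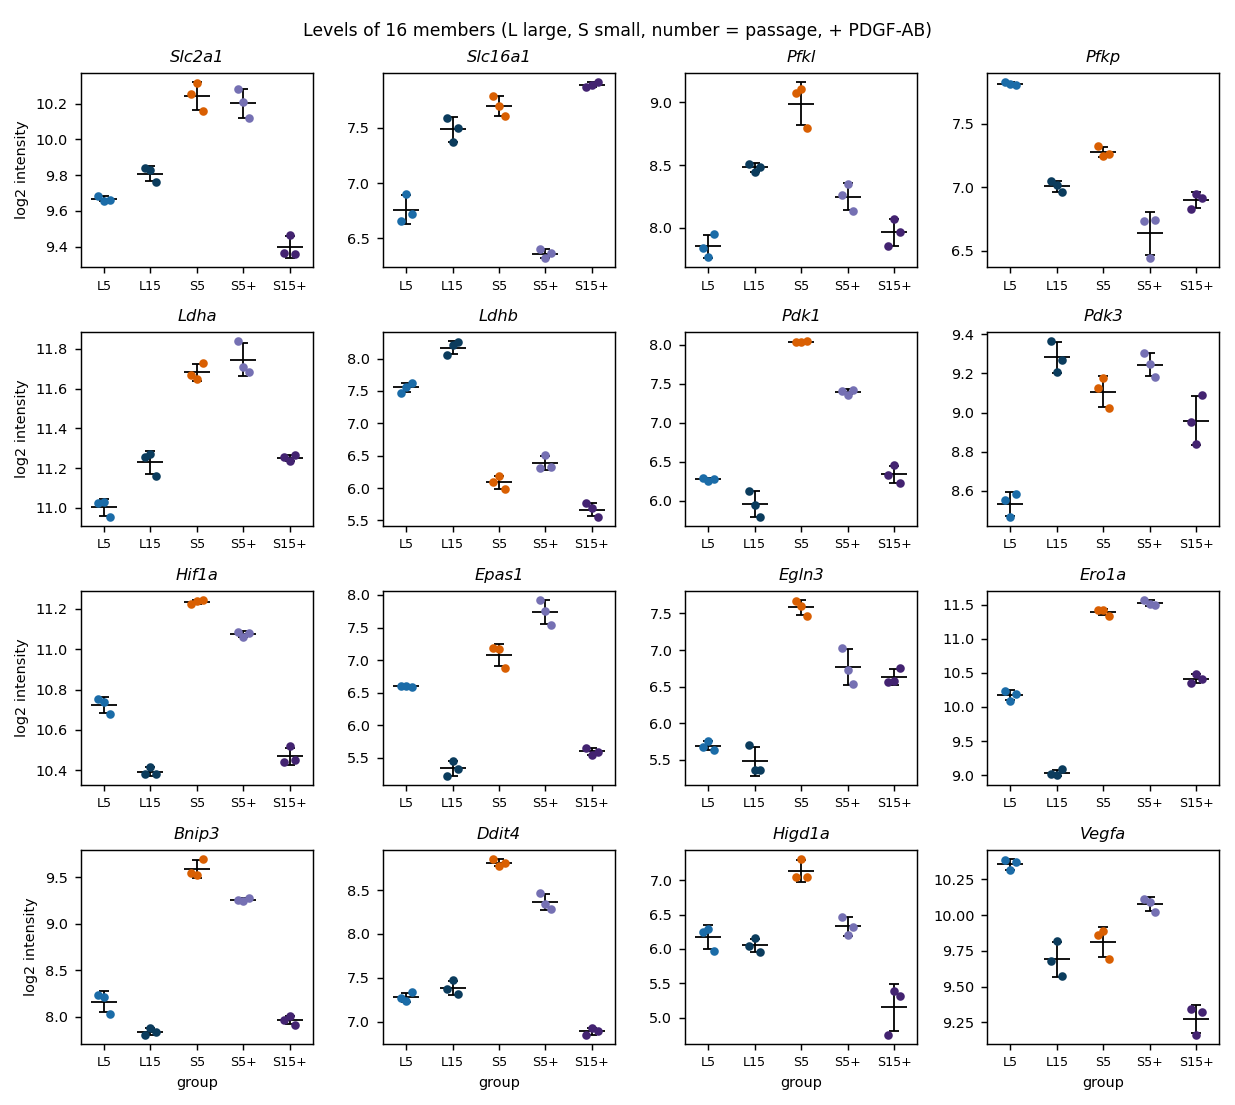
Log2 intensity (vertical axes) of 16 members in the 5 groups, with 3 arrays as points, the mean as a dash and the SD as bars; L is large, S is small, the number is the passage and + is PDGF-AB. Pdk1, Bnip3, Ddit4 and Egln3 are highest in untreated small colonies at passage 5, Ldhb is highest in large colonies at passage 15 (8.17), and axes do not start at 0.

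Among the oxygen sensing genes both HIF alpha subunits fell with passage in both cultures. Epas1, which encodes HIF2α, read 6.60, 6.60 and 6.59 in large colonies at passage 5 and 5.22, 5.46 and 5.33 at passage 15, a change of -1.26 ± 0.094 (adjusted p = 1.38e-08). In treated small colonies it went from 7.92, 7.75 and 7.54 to 5.65, 5.54 and 5.59, a change of -2.14 ± 0.094, 4.41-fold lower (adjusted p = 1.01e-11), the largest passage change of any member. The fall was larger in treated small colonies (difference -0.88 ± 0.13, adjusted p = 7.56e-05). PDGF-AB raised it, from 7.18, 7.16 and 6.88 in untreated small colonies (0.66 ± 0.094, adjusted p = 5.35e-05).

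Hif1a, which encodes HIF1α, moved less. It fell with passage in large (-0.33 ± 0.049) and in treated small colonies (-0.61 ± 0.049) (adjusted p = 4.06e-05 and adjusted p = 2.56e-08), and was lower in large than in small untreated colonies at passage 5 (10.72 ± 0.041 and 11.24 ± 0.0094, -0.51 ± 0.049). With PDGF-AB its change was -0.16 ± 0.049 (adjusted p = 0.0214). That call was lost with arrays centred on their medians (adjusted p = 0.0624), with cyclic loess (0.058), with the compared arrays alone (0.0511) and without untreated replicate 2 (0.0579) or treated replicate 2 (0.0717). PDGF-AB thus moved Epas1 up and Hif1a, where called, down.

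The prolyl hydroxylases that mark HIF for degradation differed from each other. Egln3, itself induced by HIF, read 7.68, 7.60 and 7.47 in untreated small colonies and 5.68, 5.76 and 5.64 in large ones at passage 5, 3.71-fold lower in large colonies (-1.89 ± 0.11, adjusted p = 6.42e-10) and the largest difference of any member between the colony types. It read 7.02, 6.73 and 6.54 with PDGF-AB, a change of -0.82 ± 0.11. Passage left no called change in large (5.71, 5.37 and 5.36 at passage 15, -0.21 ± 0.11) or in treated small colonies (6.57, 6.58 and 6.76, -0.13 ± 0.11). The change in large colonies was called without large passage 15 replicate 1 (adjusted p = 0.0336). Egln1, the main HIF hydroxylase, was not called between colony types (0.01 ± 0.051, adjusted p = 0.911) and fell with passage in both cultures (changes of -0.31 ± 0.051 and -0.59 ± 0.051).

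The hypoxia targets Bnip3, Ddit4 and Higd1a, of the mitochondria and of stress control, had their highest group means in untreated small colonies at passage 5. Bnip3, a mitochondrial receptor for mitophagy, read 9.55, 9.52 and 9.70 in untreated small and 8.24, 8.22 and 8.04 in large colonies at passage 5, 2.69-fold lower in large ones (adjusted p = 1.91e-11). It fell with PDGF-AB to 9.26, 9.25 and 9.28 (-0.33 ± 0.065). With passage it fell to 7.97, 8.01 and 7.92 in treated small colonies (-1.30 ± 0.065) and to 7.81, 7.88 and 7.84 in large ones (-0.32 ± 0.065), so that the cultures, far apart at passage 5, differed by 0.12 ± 0.065 at passage 15, which was not called. This difference was called with cyclic loess between arrays (adjusted p = 0.0268). Its second probe set gave group means of 8.57 in untreated small and 7.35 in large colonies at passage 5, a difference in the same direction.

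Ddit4, which encodes the mTORC1 inhibitor REDD1, fell with passage in treated small colonies alone. It read 8.47, 8.34 and 8.29 and 6.85, 6.93 and 6.89 there, a change of -1.47 ± 0.063 (adjusted p = 6.58e-12), against 7.27, 7.23 and 7.34 and 7.37, 7.48 and 7.31 in large colonies (0.11 ± 0.063, adjusted p = 0.205). The difference of -1.58 ± 0.088 was the largest of any member (adjusted p = 7.14e-10). Untreated small colonies at passage 5 read 8.86, 8.77 and 8.80, 2.9-fold above large colonies, and PDGF-AB lowered the level (change -0.45 ± 0.063).

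Higd1a is a mitochondrial inner membrane protein induced by hypoxia. It read 7.04, 7.32 and 7.04 in untreated small colonies, 6.47, 6.20 and 6.32 with PDGF-AB and 4.75, 5.38 and 5.31 in treated small colonies at passage 15. Large colonies read 6.25, 6.29 and 5.97 and 6.04, 6.16 and 5.96 at the 2 passages. It fell with PDGF-AB (-0.81 ± 0.14) and with passage in treated small colonies (-1.18 ± 0.14, adjusted p = 2.24e-06), and its change in large colonies (-0.12 ± 0.14) was not called. The passage changes differed by -1.06 ± 0.20 (adjusted p = 5.12e-04).

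Other targets act in the secretory pathway. Ero1a, the oxidase that drives disulfide formation in the endoplasmic reticulum, fell with passage by nearly the same amount in both cultures. It read 10.23, 10.09 and 10.19 and 9.02, 9.0 and 9.08 in large colonies (-1.14 ± 0.058, adjusted p = 1.03e-10) and 11.58, 11.51 and 11.50 and 10.35, 10.49 and 10.41 in treated small ones (-1.11 ± 0.058), a difference of 0.03 ± 0.082 (adjusted p = 0.828). At passage 15 treated small colonies lay above untreated large ones by 1.38, where colony size and treatment cannot be told apart. Untreated small colonies of passage 5 read 11.42, 11.43 and 11.34. P4ha1 and P4ha2, the catalytic subunits of the collagen prolyl hydroxylase, fell with PDGF-AB (changes of -0.46 ± 0.053 and -0.48 ± 0.068). P4ha2 read 8.18, 8.35 and 8.15 without and 7.79, 7.72 and 7.72 with PDGF-AB in small colonies at passage 5, with no overlap. In large colonies it read 8.20, 8.01 and 8.06 and 8.11, 8.03 and 7.97 at passage 5 and passage 15, and in treated small colonies at passage 15 7.48, 7.58 and 7.58.

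Vegfa, the vascular growth factor, did not follow the other targets between the colony types. It read 10.39, 10.31 and 10.37 in large and 9.86, 9.89 and 9.69 in small untreated colonies at passage 5, higher in large ones by 0.54 ± 0.073 (adjusted p = 1.46e-05). It fell with passage to 9.68, 9.82 and 9.57 in large colonies (-0.67 ± 0.073) and from 10.11, 10.09 and 10.02 to 9.34, 9.16 and 9.32 in treated small ones (-0.80 ± 0.073), and these falls differed by -0.13 ± 0.10, which was not called. With PDGF-AB it rose by 0.26 ± 0.073, which was not called when replicate 3 of the untreated small colonies was left out (adjusted p = 0.0605).

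Ndrg1, a stress gene induced by hypoxia, was the hypoxia target that rose most with passage. Treated small colonies read 8.35, 8.30 and 8.26 at passage 5 and 8.98, 8.85 and 8.94 at passage 15, a rise of 0.62 ± 0.061 (adjusted p = 3.08e-07), while large colonies read 8.10, 8.18 and 8.16 and 8.26, 8.08 and 8.15 (0.02 ± 0.061, not called). Untreated small colonies read 8.56, 8.68 and 8.58, and PDGF-AB lowered the level (change -0.31 ± 0.061). Ankrd37, an ankyrin repeat gene induced by HIF, was lower in large than in small untreated colonies (-0.44 ± 0.069) and fell with passage in treated small colonies (-0.48 ± 0.069), at levels of 5.18 to 5.83. Mxi1, a repressor that competes with MYC for MAX, had group means of 6.88 to 7.15. It was called lower in large than in small untreated colonies (-0.20 ± 0.062), a call lost without large replicate 1 (adjusted p = 0.0573) or small replicate 3 (0.0822). Car9, the membrane carbonic anhydrase widely used as a hypoxia marker, had group means of 4.16 to 4.36, close to background, and was called in no comparison. Its change in the comparison of the cultures at passage 15 was called with cyclic loess (adjusted p = 0.0208).

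Set side by side, 11 members were called in the same direction with passage in both cultures, 6 in opposite directions, 5 in large colonies alone, 10 in treated small colonies alone and 5 in neither. These are 29.7%, 16.2%, 13.5%, 27% and 13.5% of the members, against 19.9%, 4.7%, 11.5%, 21.4% and 42.5% of all genes and 34.5%, 7.35%, 15%, 24% and 19.2% of genes at or above the median level. The members with opposite directions were Pfkl, Pfkm, Pfkp, Ldha, Ldhb and Pdk3. The difference was called for each of these 6, which their choice by opposite called changes nearly ensured, so it adds no support. Of the 10 called in treated small colonies alone the difference was called for 7, namely Slc2a1, Pkm, Pfkfb3, Ddit4, Ndrg1, Ankrd37 and Higd1a. Of the 11 with the same direction, Slc16a1 rose and the other 10 fell. The places of Mxi1, P4ha2, Pfkl, Aldoa and Pgam1 rest on calls that were lost under at least 1 alternative, and that of Hk1 on a change that reversed with its other probe set. Slc2a1, Slc16a3, Egln3, Ankrd37 and Aldoc gained a passage call under at least 1 alternative. Of 11 genes of the MYC and proliferation list 5 rose and 2 fell with passage in large colonies, and 6 rose and 2 fell in treated small ones, where 36.1% and 46% of all genes were called. The shares of genes at or above the median level were 56.9% and 65.8%. The proliferation marker Mki67 went from 5.41 ± 0.036 to 8.18 ± 0.16 in large and from 5.60 ± 0.12 to 8.97 ± 0.17 in treated small colonies, and stood at 6.71 in every array of untreated small colonies. Its part in the changes of the members was not tested.

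**Figure D4:**
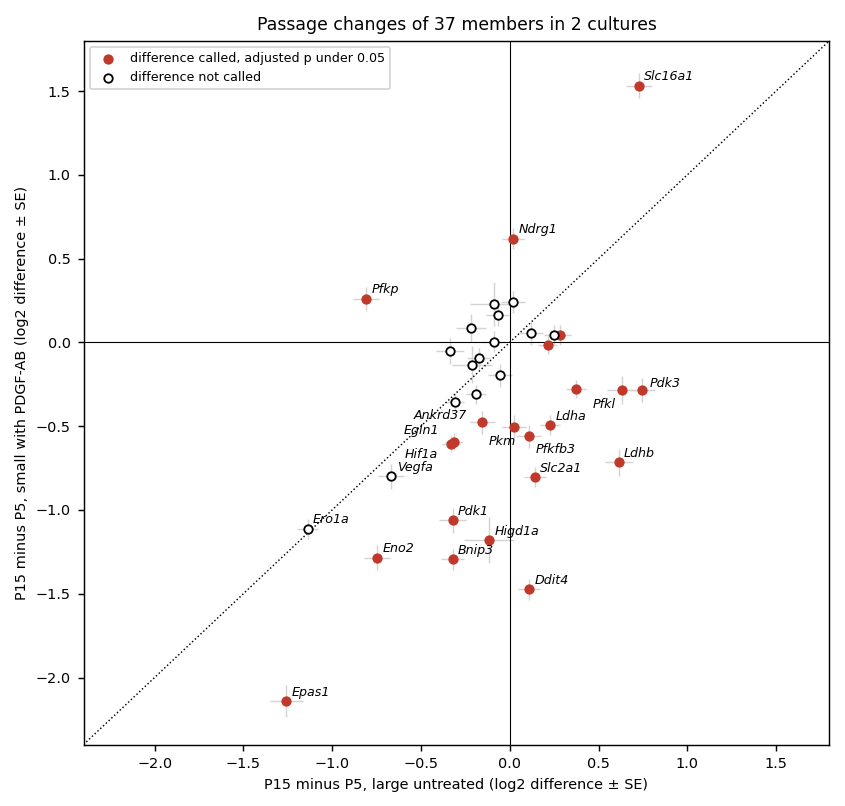
Passage change (passage 15 minus passage 5, log2 difference ± SE) of the 37 members in untreated large colonies (horizontal axis) and in small colonies with PDGF-AB (vertical axis); the dotted line marks equal changes, and filled points have a called difference. Of the 22 filled points 19 lie below the line, and Pfkp, Slc16a1 and Ndrg1 lie above it.

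Other genes of these pathways were followed in further lists. Of 28 further hypoxia response genes 4 were higher and 18 lower in large than in small untreated colonies (median -0.32), where 18.2% of all genes were higher and 18% lower. Among genes at or above the median level 26.2% were higher and 29.1% lower. With PDGF-AB 1 rose and 16 fell (median -0.18), where 10.7% of all genes rose and 18.2% fell. Among genes at or above the median level 13.8% rose and 31% fell. With passage 7 rose and 10 fell in large colonies and 7 rose and 15 fell in treated small ones, where 36.1% and 46% of all genes were called. The shares of genes at or above the median level were 56.9% and 65.8%. Between the untreated colony types Stc1 and Ak4, lower in large colonies, and Adm and Pgf, higher in them, differed by more than any member. Stc1, the secreted hormone stanniocalcin, stood at 5.34 ± 0.031 in large and 8.39 ± 0.073 in small untreated colonies at passage 5 (-3.05 ± 0.066, adjusted p = 1.63e-15). It fell with PDGF-AB (change -2.36 ± 0.066). Ak4, a mitochondrial adenylate kinase induced by HIF, was lower in large colonies at passage 5 (difference -3.21). Adm, the vasodilator peptide adrenomedullin, went against the list, higher in large colonies by 2.24 ± 0.057 and raised by PDGF-AB by 1.52 ± 0.057. Pgf, the placental growth factor, was also higher in large colonies (2.44). Fam162a, a mitochondrial protein induced by hypoxia, fell with PDGF-AB (-1.33), as did the VEGF receptor gene Flt1 (-1.42).

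Of 12 other components of the HIF pathway 3 were higher and 3 lower in large than in small untreated colonies (50% called, against 36.2% of all genes and 55.3% of those at or above the median level). Arnt2, a partner of the alpha subunits, and Cited2, a HIF antagonist at the coactivator p300, were higher in large colonies by 0.85 and 0.65, and both rose with PDGF-AB, by 0.43 and 0.41. Arnt was lower in large colonies (-0.49), and Vhl, which targets hydroxylated HIF for degradation, fell with PDGF-AB (-0.47).

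Among 12 genes of pyruvate entry into mitochondria, 5 were higher and 3 lower in large than in small untreated colonies, where 36.2% of all genes were called. With PDGF-AB 1 rose and 5 fell, where 28.9% of all genes were called. Among genes at or above the median level 55.3% were called between colony types and 44.8% with PDGF-AB. Mpc1, a subunit of the mitochondrial pyruvate carrier, fell by 0.59 ± 0.065 with passage in treated small colonies and was lower there than in large colonies at passage 15 (-1.11 ± 0.065, adjusted p = 5.31e-10). Pdk4 rose with passage in large colonies by 0.73 ± 0.068, and the passage change in treated small colonies differed from it by -0.83 ± 0.097. Of 13 genes of glycogen and serine synthesis 7 rose and 4 fell with passage in treated small colonies and 5 rose and 4 fell in large ones, where 46% and 36.1% of all genes were called. The shares of genes at or above the median level were 65.8% and 56.9%. The serine enzyme gene Psat1 rose by 1.61 ± 0.062 in treated small and 0.52 ± 0.062 in large colonies, and Phgdh, the first enzyme of that branch, fell by 0.56 ± 0.069 in large colonies, with passage changes that differed by 1.23 ± 0.098 (adjusted p = 5.40e-08).

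Of 7 genes of the pentose phosphate pathway, the branch that makes NADPH, 2 were higher and none lower in large than in small untreated colonies, a share of 28.6% that lies below the 36.2% of all genes. Among genes at or above the median level 55.3% were called. H6pd, its enzyme in the endoplasmic reticulum, was higher in large colonies by 0.62, rose with PDGF-AB by 0.62 and fell with passage in treated small colonies (change -0.93 ± 0.053). Of 16 other genes of glycolysis and glucose entry 3 rose and 8 fell with passage in treated small colonies, where 46% of all genes were called. In large colonies 1 rose and 5 fell, a share of 37.5%, near the 36.1% of all genes. Among genes at or above the median level 65.8% were called in treated small and 56.9% in large colonies. Eno3, the muscle enolase, rose by 1.04 ± 0.068 in large and fell by 0.63 ± 0.068 in treated small colonies, a difference of -1.67 ± 0.096 (adjusted p = 9.68e-10). Myc, a driver of glycolytic genes, was lower in large than in small untreated colonies (-1.0 ± 0.083), fell with PDGF-AB (-0.35 ± 0.083) and rose with passage by 1.01 ± 0.083 in large and 1.07 ± 0.083 in treated small colonies. Pdgfra stood at 6.58 ± 0.12 in large and 6.66 ± 0.11 in small untreated colonies at passage 5 and fell to 6.28 ± 0.100 with PDGF-AB (adjusted p = 0.00218).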

How the data were processed

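Total RNA of 15 samples was measured on 1-colour expression arrays with 28853 probe sets. Values were used as deposited by the authors, as log2 intensities. RMA and limma are named in the submitters' processing notes, with no versions, and background correction and scaling could not be checked on scanner files here. Of the probe sets 21789 name 1 gene, 1621 several and 5443 none, and 21698 were matched to RefSeq (GRCm38.p6). Each gene was read on the probe set naming only it with the highest mean, which left 19938 genes.

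Group means were fitted over all 15 arrays with limma 3.58.1 in R 4.3.3 (lmFit, eBayes; 10 residual degrees of freedom), with Benjamini-Hochberg adjustment over all genes and a threshold of 0.05. The number of arrays limits the precision: the median SE of a difference was 0.0778. The fit was tested on simulated data. The members and lists were chosen with earlier results of these data known. Array values are given, per comparison, for up to 8 called members with the largest changes and no overlap between groups; further members are described by their role. Of each other list the genes named were among the 4 with the smallest adjusted p in a comparison, and Pdgfra, Mki67 and Myc were always given. Replicate numbers were checked as pairs: same-numbered arrays correlated at 0.098 to 0.21 in the passage comparison of large colonies and no comparison had all pairs over 0.1, so no pairing was used. In that passage comparison, however, 6 of 6 arrays correlated best with their own number, and a replicate block was run as an alternative. Alternatives changed the scaling, variance moderation, array weights, filter, probe set rule, arrays in the fit, block and size of a call, and left out each array.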

Additional observations from a re-analysis of the deposited data

Results flagged for a closer look

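The passage change in small colonies with PDGF-AB differed from that in untreated large colonies for 22 of the 37 members, by the test of the difference itself (limma, adjusted over all genes), where 34.4% of all genes were called. Among genes at or above the median level 46.3% were called. Values are the log2 passage change in treated small colonies minus that in large colonies, and each contrast rests on 3 arrays a group. Among the transporters the difference was -0.95 for Slc2a1 and 0.80 for Slc16a1. Among the phosphofructokinase genes the difference was -0.91 for Pfkl, -0.65 for Pfkm and 1.07 for Pfkp. Among the other enzymes of glycolysis the difference was -0.24 for Tpi1, -0.23 for Pgk1, -0.54 for Eno2 and -0.53 for Pkm. Among the regulators of flux and pyruvate fate the difference was -0.67 for Pfkfb3, -0.72 for Ldha, -1.33 for Ldhb, -0.74 for Pdk1 and -1.03 for Pdk3. Among the oxygen sensing genes the difference was -0.28 for Hif1a, -0.88 for Epas1 and -0.28 for Egln1. Among the hypoxia targets the difference was -0.97 for Bnip3, -1.58 for Ddit4, 0.60 for Ndrg1, -0.32 for Ankrd37 and -1.06 for Higd1a. The calls for Tpi1 (adjusted p = 0.0332) and Pgk1 (adjusted p = 0.0266) were lost under several alternatives. Colony size and PDGF-AB differ together between the cultures, so their parts cannot be told apart. No outlying array was looked for within groups, since each holds 3 arrays.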

How the results depend on the processing

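Over single members, the alternatives other than leaving out an array kept direction and call in 2043 results, lost the call in 104, of which 80 only through the demand for at least 1.5-fold, gained it in 37 and reversed 6. Reversals concerned Hk1 and Slc2a3. On the Hk1 probe set with RefSeq transcripts, an alternative chosen after seeing the data, the changes were -0.47 with passage in treated small colonies, -0.63 at passage 15 and -0.39 for the difference between passage changes; the mean over its probe sets gave -0.11 and -0.20 for passage in treated small colonies and the difference at passage 15. Slc2a3 at passage 15 became -0.035 under cyclic loess. For Hk1 the alternatives changed which probe sets were read, and for Slc2a3 the scaling between arrays. Otherwise the cause was not tested. With at least 1.5-fold demanded, members called (higher, lower) numbered 13 (1, 12) for colony size, 9 (4, 5) for passage in large colonies, 7 (1, 6) for PDGF-AB, 14 (2, 12) for passage in treated small colonies, 6 (3, 3) at passage 15 and 15 (3, 12) for the difference between passage changes, against 9.93%, 9.66%, 4.43%, 13.2%, 11.7% and 11.5% of all genes and 15.6%, 14.8%, 6.63%, 21.6%, 18.6% and 17.2% of those at or above the median level. Members with a more positive passage change in treated small colonies numbered 5 with array weights, 6 when genes under the median level were dropped and 5 with trend and robust moderation. Leaving out 1 array kept 1469 member results, lost 64, gained 21 and reversed none. Over these fits the members higher in the difference numbered 3 to 5 (5 without treated small passage 15 replicate 1 or passage 5 replicate 3). Those higher with PDGF-AB numbered 2 to 4 (2 without treated passage 5 replicate 2). Those higher in treated small than in large colonies at passage 15 numbered 8 to 10, against 12 in the main fit. Same-numbered arrays correlated at 0.098 to 0.21 in the passage comparison of large colonies, where 6 of 6 arrays correlated best with their own number, a hint from the data and not from the design. With the replicate block 4 member calls were lost and 2 gained, with 22 members called with passage in large colonies, where Pgam1 was lost (adjusted p = 0.0577) and Slc16a3 gained (0.0476). Car9 read close to background, which limits what can be called for it.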
